A study of Homo sapiens with 12 samples.

Results

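Some genes were expressed at a lower level in LNCaP cells lacking Bag-1L than in their control line whatever the culture condition, and 63 of the 14103 genes with a mean of at least 1 CPM (gene counts scaled to a sample total of 1000000) met that description. LNCaP is an established prostate cancer line that depends on androgen. TALENs, paired engineered nucleases, had been used to delete the CTG start codon of Bag-1L, the longest protein of the BAG1 gene, and left the start codons of the shorter Bag-1 proteins intact. The knockout (KO) cells were compared with TALEN control cells in full medium (FM), and after 72 h in medium with charcoal-stripped serum followed by 16 h of vehicle (EtOH) or 10 nM dihydrotestosterone (DHT). Each of the 6 groups had 2 replicates, 12 samples in all. The edited cells had been isolated as single clones after transfection, so loss of Bag-1L and a difference between clones cannot be told apart in any value below. The sample labels do not say whether replicates were separate cultures, so p-values measure only the spread between these samples, which may be technical.

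A gene was chosen when, in each of FM, EtOH and DHT, its higher KO replicate lay at or below its lower control replicate divided by 1.5. Genes on chromosome 12 from 76 Mb on were to be left out, and none of the 62 genes that met the rule and had a position lay there. The remaining gene, ENSG00000220032, had no position, so this limit could not be applied to it. The chosen genes made up 0.447% of the genes with a mean of at least 1 CPM, whereas the same limit in a single condition took 1.68% in FM, 1.28% in EtOH and 1.5% in DHT. In the mirrored direction, 166 genes were higher in KO cells in all 3 conditions. Because the rule used every sample, the KO and control levels below are a description with no test. Closest inside the limit were NOD2 and FAM111B, both with a lowest ratio of 1.51, and MAGEA1 at 1.52. Closest outside it were AASS at 1.5 (just under the limit before rounding), MEF2C at 1.48 and GAGE1 at 1.46.

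Bag-1L is a nuclear co-chaperone: its BAG domain binds HSP70 chaperones, and it also binds steroid hormone receptors. DHT acts through a nuclear receptor that moves to response elements in DNA, where it raises genes of secretion, lipid synthesis and differentiation in prostate epithelium and lowers others. Full medium holds serum with its own steroids, which charcoal treatment removes.

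Gene counts per sample ran from 20826843 to 30354666, at which 3 counts correspond to between 0.0988 and 0.144 CPM. Replicates lay farthest apart in control EtOH, with a median absolute log2 difference of 0.247 against 0.0743 to 0.166 in the other groups. BAG1 itself (chr9:33247818-33264718 on GRCh37) stood at 83.0 and 76.3 CPM in control against 59.5 and 64 in KO cells in FM, 72.0 and 105.9 against 50.6 and 47.0 in EtOH, and 83.6 and 95.7 against 43.9 and 44.4 in DHT. Its groups did not overlap, but gene counts do not separate the BAG1 proteins, which share a transcript, and its lowest ratio of 1.19 kept it outside the set. The luminal markers KRT8, KRT18 and HOXB13 had at least 529.1, 140.6 and 154.4 CPM in every sample. Summed with 5 more luminal markers they were higher in KO cells in every condition, between 4756.7 and 5126.3 CPM against 3183.2 to 3267.2 in FM, 2695.9 and 2710.9 against 2187.6 to 2386.5 in EtOH, and 5240.1 and 5421.0 against 4955.8 to 4968.5 in DHT. None of 4 basal and 4 immune markers had a mean of 1 CPM. The basal markers together reached 2.49 to 3.29 CPM in KO cells against 1.06 to 1.13 in control in FM and no more than 1.22 elsewhere, and the immune markers together never exceeded 0.121 CPM. The part of these lists in the results below was not tested.

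Promoter windows, from 250 bases before to 50 after a start site, are shown for MAF and ALDH1A1, an androgen-raised transcription factor and the gene with the largest fold after a pseudogene, and for MICAL1 and PHLDB2, whose DHT responses passed the test of a difference between control and KO cells. They are RefSeq sequences of GRCh38.p14, printed 5′ to 3′ on the gene's strand. Capitals mark the CCAAT box, the TATA box (TATAAA), the E-box (CACGTG), the forkhead motif (TGTTTAC) and the androgen response half-site (AGAACA), each searched on both strands. MAF, minus strand, lies at chr16:79600688-79600987 and ALDH1A1, minus strand, at chr9:72953004-72953303. MICAL1, minus strand, had 2 windows, at chr6:109465919-109466218 and chr6:109455842-109456141. PHLDB2, plus strand, had 4, of which the one farthest upstream, chr3:111732246-111732545, is shown.
MAF: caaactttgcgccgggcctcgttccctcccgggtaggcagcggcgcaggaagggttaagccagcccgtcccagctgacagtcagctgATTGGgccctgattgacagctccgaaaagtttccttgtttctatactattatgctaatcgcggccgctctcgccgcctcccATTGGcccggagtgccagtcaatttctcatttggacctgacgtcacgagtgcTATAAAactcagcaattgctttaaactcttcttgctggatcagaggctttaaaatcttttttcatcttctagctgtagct
ALDH1A1: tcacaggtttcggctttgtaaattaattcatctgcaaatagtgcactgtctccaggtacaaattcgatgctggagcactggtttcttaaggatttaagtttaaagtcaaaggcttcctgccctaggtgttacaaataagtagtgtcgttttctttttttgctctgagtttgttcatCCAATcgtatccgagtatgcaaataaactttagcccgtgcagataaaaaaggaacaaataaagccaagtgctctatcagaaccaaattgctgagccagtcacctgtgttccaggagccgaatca
MICAL1 upstream window: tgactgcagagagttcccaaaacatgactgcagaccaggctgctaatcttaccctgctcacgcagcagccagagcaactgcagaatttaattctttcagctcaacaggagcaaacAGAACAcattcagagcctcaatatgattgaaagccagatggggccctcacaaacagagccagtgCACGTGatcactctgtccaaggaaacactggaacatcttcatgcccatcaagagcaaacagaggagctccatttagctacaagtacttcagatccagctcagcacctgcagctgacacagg
MICAL1 downstream window: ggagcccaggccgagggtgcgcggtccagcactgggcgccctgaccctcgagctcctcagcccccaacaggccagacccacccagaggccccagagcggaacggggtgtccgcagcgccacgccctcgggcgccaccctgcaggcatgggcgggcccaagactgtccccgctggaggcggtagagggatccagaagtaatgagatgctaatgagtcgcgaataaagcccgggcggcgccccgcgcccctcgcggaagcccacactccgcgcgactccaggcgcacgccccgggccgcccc
PHLDB2: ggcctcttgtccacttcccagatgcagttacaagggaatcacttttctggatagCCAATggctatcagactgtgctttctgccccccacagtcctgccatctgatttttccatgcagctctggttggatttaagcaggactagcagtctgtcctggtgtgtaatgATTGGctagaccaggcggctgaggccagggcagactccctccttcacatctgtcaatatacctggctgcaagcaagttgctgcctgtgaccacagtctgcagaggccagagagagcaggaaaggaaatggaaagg

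The MAF window held a TATA box 30 bases before the start site and 2 CCAAT boxes farther upstream, and the ALDH1A1 window held a CCAAT box 74 bases before it. In the upstream MICAL1 window a half-site lay 135 bases and an E-box 71 bases before the start, and the downstream window held none of these motifs. The table gave 67 windows for 43 of the 62 genes with a symbol. The half-site AGAACA occurred in 13.4% of the 67 windows and in 14.8% of all 35116 windows of the table. The full element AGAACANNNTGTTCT, which contains the half-site, was in 0 of the 67 and in 0.00285% of all. The forkhead motif was in 4.48% of these windows against 3.42% of all, the TATA box in 11.9% against 11.5%, the CCAAT box in 34.3% against 34.6%, the E-box in 5.97% against 7.26%, and GGGCGG (GC box, not capitalised) in 52.2% against 45.0%. Genes without a window included ACSM3, ALOX15B, CADPS2, CRISPLD1, CSPG4P11, CYP4F32P, FAM111B, GC, IL15, ILVBL, KRT6C, MAGEA1, NNMT, RALYL, SGK2, SLC6A3, SLC7A11 and ZNF812P.

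Among the 63 genes, 58 were protein coding and 4 were pseudogenes (CYP4F32P, CSPG4P11, ZNF812P and FAM95B1). The remaining identifier, ENSG00000220032, had neither a symbol nor a position in the annotation. Most were of low or middle abundance: 6 had a mean of at least 100 CPM, 21 lay between 10 and 100, and 36 below 10. Per kilobase of annotated exon, mean levels ran from 0.131 CPM for SCUBE2 to 62.9 CPM for FAM111B. The median ratio of control to KO group means over the genes was 2.57 in FM, 2.81 in EtOH and 2.90 in DHT. Ranked by the condition in which it was smallest, this ratio had a median of 2.11, and it was at least 2 in 38 genes, at least 3 in 15 and at least 4 in 7. For 41 of the 63, the lowest of the 6 control samples lay above the highest of the 6 KO samples even across conditions. The rule had already set the lines apart within each condition. The share over all genes was not computed, so this count is a description only.

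**Figure D1:**
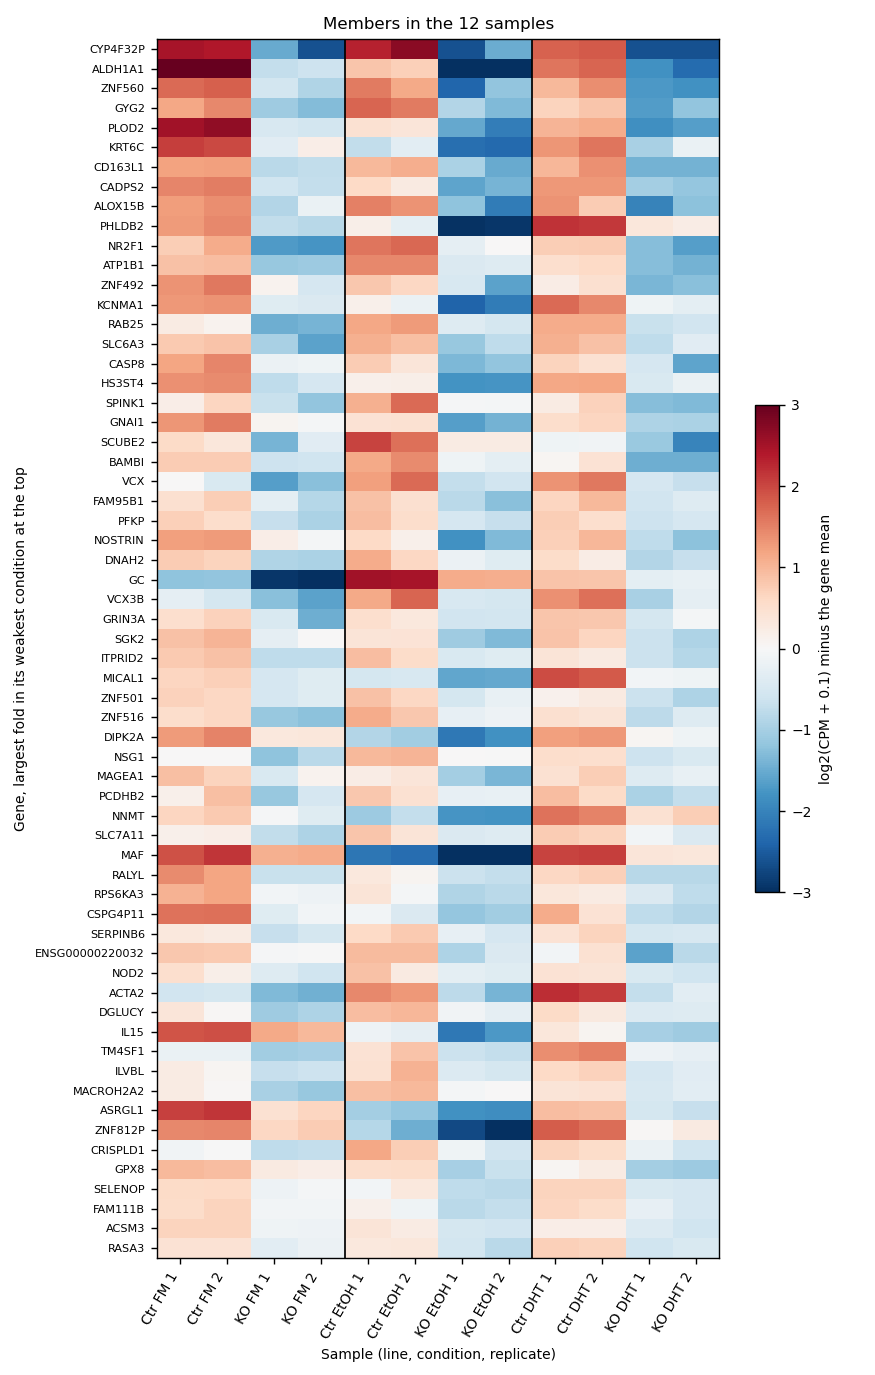
Level of 62 of the 63 genes (one row each, ordered by the ratio of control to KO in the condition where it was smallest) in the 12 samples, coloured by log2(CPM + 0.1) minus the mean of that gene, with the colour scale ending at -3 and 3. Within each condition the 2 control columns are redder than the 2 KO columns in every row, as the rule required, while rows such as GC, MAF and ASRGL1 differ more between conditions than between lines.

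Enzymes of metabolism and redox formed the largest of the groups into which the genes were sorted by textbook role, a sorting made with their values known. Of 13 such genes, the median ratio of control to KO was 2.77 in FM, 2.57 in EtOH and 2.33 in DHT. ALDH1A1 (chr9:75515587-75695358, minus strand; GRCh37 here and below), which oxidises retinal to retinoic acid, was measured at 74.6 and 76.8 CPM in control against 3.90 and 4.14 in KO cells in FM, 11.5 and 10.6 against 0.720 and 0.481 in EtOH, and 19.9 and 21.9 against 1.75 and 1.23 in DHT. Every control sample was above every KO sample, and the ratio of means was 18.8-fold in FM, 18.3-fold in EtOH and 14.1-fold in DHT. PLOD2, a lysyl hydroxylase that prepares collagen for cross-linking, stood at 25.5 and 28.3 CPM in FM, 6.0 and 5.61 in EtOH and 8.90 and 9.54 in DHT in control cells, and 3.10 and 2.94, 1.44 and 0.962 and 1.15 and 1.31 in KO cells in the same order. GYG2, a glycogenin that primes glycogen synthesis, had 6.06 and 7.32 CPM in control against 1.22 and 1.02 in KO cells in FM, 9.14 and 8.03 against 1.39 and 1.0 in EtOH, and 4.30 and 4.81 against 0.758 and 1.11 in DHT. Both were again separated across all conditions, with a smallest ratio of 4.83 for PLOD2 in EtOH and 4.87 for GYG2 in DHT. ALOX15B, a lipoxygenase of arachidonic acid that is made in prostate epithelium, was at 3.38 and 3.70 CPM in FM, 4.07 and 3.62 in EtOH and 3.57 and 2.35 in DHT in control cells, and 0.688 and 1.16, 0.528 and 0.240 and 0.264 and 0.517 in KO cells in the same order.

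For the other genes of this group, the ratio in the condition where it was smallest lay below that of ALOX15B, 3.83 in FM. NNMT, which methylates nicotinamide, was 1.95-fold in FM, 2.15-fold in EtOH and 1.99-fold in DHT higher in control cells. PFKP, the platelet form of phosphofructokinase and a control point of glycolysis, differed 2.77-fold in FM, 2.59-fold in EtOH and 2.32-fold in DHT. ASRGL1, an asparaginase, differed 2.92-fold in FM, 1.71-fold in EtOH and 2.88-fold in DHT, and HS3ST4, which adds sulfate to heparan chains, 4.17-fold in FM, 4.04-fold in EtOH and 2.85-fold in DHT. ACSM3, which activates medium-chain fatty acids, had a smallest ratio of only 1.63, in DHT, and its levels ran from 62.3 to 86.4 CPM in control and from 36.0 to 49.8 CPM in KO cells. SELENOP, the selenium transport protein, also had a smallest ratio of 1.63, in FM, as GPX8, a glutathione peroxidase of the endoplasmic reticulum, had one of 1.65 there. ILVBL, a lyase of fatty acid breakdown, and DGLUCY, a D-glutamate cyclase, had smallest ratios of 1.76 and 1.81.

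Of the lists of pathway genes compared, the retinoid list had 14 genes with a mean of at least 1 CPM, and ALDH1A1 was the only one chosen. Its relative ALDH1A3 differed by ratios of 0.510 in FM, 1.47 in EtOH and 0.748 in DHT, lower in control than in KO cells in FM and DHT. GYG2 was likewise the only chosen gene of 19 in glycogen synthesis and breakdown, and the second glycogenin, GYG1, had ratios between 1.08 and 1.17. The BAG and HSP70 list (17 genes), the interferon and antigen presentation list (15) and the androgen-repressed list (9) held none of the 63, but at 0.447% of all genes lists this short would seldom hold one.

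Membrane transporters and channels were 5 of the genes. ATP1B1, the beta subunit of the sodium pump, was one of the most abundant, at 206.0 and 213.5 CPM in control against 50.8 and 52.4 in KO cells in FM, 303.3 and 304.8 against 83.4 and 86.5 in EtOH, and 159.1 and 168.8 against 46.3 and 41.7 in DHT. All control samples exceeded all KO samples by a wide margin, and the ratio varied little, 4.07-fold in FM, 3.58-fold in EtOH and 3.73-fold in DHT. KCNMA1, the pore of the large-conductance calcium-activated potassium channel, stood at 58.5 and 45.7 CPM in EtOH and 169.8 and 141.9 in DHT in control cells, 9.80 and 12.1 and then 47.7 and 43.1 in KO cells, and, in FM, 130.0 and 133.5 in control and 40.5 and 39.0 in KO cells. One control EtOH sample lay below a KO DHT sample, although the lines were apart within each condition. SLC7A11, the cystine transporter that feeds glutathione synthesis, differed 2.03-fold in FM, 2.06-fold in EtOH and 1.94-fold in DHT. SLC6A3, the dopamine transporter, differed 4.43-fold in FM, 3.93-fold in EtOH and 2.93-fold in DHT, and these were the only 2 of 235 solute carriers in the set. GRIN3A, an NMDA receptor subunit, was low, between 1.32 and 1.92 CPM in control and between 0.311 and 0.994 CPM in KO cells.

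Transcription factors were led by MAF, a basic leucine zipper protein of differentiation. MAF (chr16:79619740-79634634, minus strand) had 11.8 and 11 CPM in EtOH and 219.7 and 228.7 in DHT in control cells, 5.33 and 5.49 and then 69.8 and 67.8 in KO cells, and, in FM, 202.0 and 238.5 in control and 111.9 and 116.4 in KO cells. Its level differed more between conditions than between lines. KO cells in FM or DHT were above control cells in EtOH, and the ratio of control to KO was 1.93-fold in FM, 2.11-fold in EtOH and 3.26-fold in DHT. NR2F1, an orphan nuclear receptor known from development and tumour cell dormancy, was at 2.73 and 3.55 CPM in control against 0.421 and 0.4 in KO cells in FM, 5.07 and 5.49 against 1.30 and 1.60 in EtOH, and 2.72 and 2.75 against 0.593 and 0.437 in DHT, with no overlap between the lines. Zinc finger genes gave 5 of the 63 and 449 of the 14103, so 1.11% of them were chosen against 0.447% of all. These were ZNF492, ZNF501, ZNF516, ZNF560 and the pseudogene ZNF812P. ZNF560 was near the floor in KO cells, with 7 counts over both KO samples against 95 in control in EtOH, a ratio of 12.3 (95% counting interval 5.75 to 31.4), and 7 against 89 in DHT, 13.2 (6.16 to 33.9). ZNF501 and ZNF516 differed least of the 5 in DHT, 2.04-fold each. MACROH2A2, a variant histone of silent chromatin, had a smallest ratio of 1.76 in DHT. RALYL, an RNA-binding protein, differed 4.0-fold in FM, 1.87-fold in EtOH and 2.90-fold in DHT.

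Genes of the cytoskeleton, adhesion and vesicle traffic numbered 12. PHLDB2 (chr3:111451344-111695364, plus strand), which tethers microtubule ends near focal adhesions, stood at 16.9 and 12.3 CPM in EtOH and 67.8 and 65.7 in DHT in control cells, 1.82 and 1.88 and then 19.0 and 17.6 in KO cells, and, in FM, 36.6 and 40.6 in control and 8.87 and 8.41 in KO cells. Its KO level after DHT was above its control level after EtOH, but within a condition the lines were at least 3.65-fold apart. MICAL1 (chr6:109765265-109787171, minus strand), which disassembles actin filaments by oxidising them, was at 10.7 and 11.2 CPM in EtOH and 61.0 and 56.0 in DHT in control cells, 5.23 and 5.29 and then 14.6 and 14.2 in KO cells, and, in FM, 24.5 and 25.4 in control and 11 and 12.1 in KO cells. Here the lines were closest in EtOH and farthest apart in DHT, 2.16-fold in FM, 2.08-fold in EtOH and 4.06-fold in DHT. CADPS2, which primes dense-core vesicles for release, differed 4.51-fold in FM, 3.85-fold in EtOH and 5.29-fold in DHT, and RAB25, a small GTPase of epithelial recycling endosomes, differed evenly, 3.04-fold in FM, 3.20-fold in EtOH and 3.33-fold in DHT. NOSTRIN, which guides the traffic of nitric oxide synthase, differed 2.30-fold in FM, 4.14-fold in EtOH and 3.75-fold in DHT, and PCDHB2, a protocadherin whose exons overlap an antisense RNA, 2.83-fold in FM, 1.96-fold in EtOH and 3.38-fold in DHT. PHLDB2 was the only one of 28 adhesion and cytoskeleton genes of the pathway list to be chosen, and its relative PHLDB1 had ratios from 0.560 to 0.617.

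ACTA2, smooth muscle actin, had the least even difference of the genes with a ratio in every condition, 1.83-fold in FM, 5.56-fold in EtOH and 6.39-fold in DHT. Its samples were at 3.86 and 4.0 CPM in FM, 15.8 and 14.4 in EtOH and 27.0 and 25.1 in DHT in control cells, and 2.26 and 2.05, 3.31 and 2.12 and 3.49 and 4.65 in KO cells in the same order. ACTA2 is also a marker of stromal cells, and the 4 other stromal markers summed to between 35.7 and 38.7 CPM in control and between 28.2 and 32.6 CPM in KO cells in DHT, to between 29.1 and 33.3 and between 29.1 and 32.5 in EtOH, and to between 16.5 and 17.4 and between 15.6 and 17.1 in FM. The lines thus overlapped in EtOH and FM and stood apart in DHT. COL1A1 lay between 15.2 and 38.5 CPM over all samples, while COL1A2, DCN and LUM never exceeded 0.390 CPM. In bulk RNA, fewer cells of a type and less RNA per cell cannot be told apart. KRT6C, a keratin of stressed and stratified epithelium, was low, at 2.90 and 2.68 CPM in FM, 0.322 and 0.468 in EtOH and 1.69 and 2.05 in DHT in control cells, and 0.459 and 0.712, 0.0480 and 0.0401 and 0.264 and 0.517 in KO cells in the same order. In EtOH its 2 KO samples held 2 counts in all against 20 in control, a ratio of 9.07 (95% counting interval 2.20 to 80.0). The basal markers KRT5, KRT14, KRT15 and TP63 each had a mean below 1 CPM. NSG1, an endosomal protein of neurons, differed 2.04-fold in FM, 2.02-fold in EtOH and 2.10-fold in DHT. The 4 neuroendocrine markers together were higher in KO cells, between 17.0 and 17.3 CPM against 7.87 to 9.54 in EtOH, and the part of either marker list in these differences was not tested.

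Signalling genes, 11 in number, had median ratios of 2.35 in FM, 2.81 in EtOH and 2.47 in DHT. RPS6KA3, the RSK2 kinase downstream of ERK, was abundant, with control samples from 117.9 to 282.1 CPM and KO samples from 66.5 to 116.6 CPM. ITPRID2, which interacts with inositol trisphosphate receptors, ran from 170.1 to 268.9 CPM in control and from 77.7 to 110.1 CPM in KO cells. DIPK2A, a kinase-like protein of the secretory pathway, had 25.2 and 22.3 CPM in EtOH and 108.5 and 113.7 in DHT in control cells, 10.4 and 13.0 and then 48.4 and 42.1 in KO cells, and, in FM, 111.6 and 130.9 in control and 57.5 and 58.7 in KO cells. KO samples in FM and DHT lay above control samples in EtOH, so the lines overlapped across conditions. GNAI1, an inhibitory G protein subunit, differed 2.71-fold in FM, 3.98-fold in EtOH and 2.88-fold in DHT, and BAMBI, a decoy receptor that dampens TGF-beta signals, 2.57-fold in FM, 2.81-fold in EtOH and 3.30-fold in DHT. IL15, the cytokine of T and NK cells, differed 1.80-fold in FM, 3.56-fold in EtOH and 2.47-fold in DHT. CASP8, the initiator caspase of death receptors, differed 2.86-fold in FM, 3.82-fold in EtOH and 3.01-fold in DHT, and NOD2, a sensor of bacterial peptidoglycan, by 1.84-fold to 1.98-fold. SGK2 and RASA3, a kinase related to SGK1 and a Ras GTPase-activating protein, had smallest ratios of 2.11 and 1.61, both in FM.

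The carriers and secreted proteins included GC, the vitamin D binding protein, which stood at 165.4 and 159.0 CPM in EtOH and 52.2 and 50.6 in DHT in control cells, 61.7 and 60.9 and then 23.3 and 24.4 in KO cells, and, in FM, 12.3 and 12.5 in control and 3.67 and 3.43 in KO cells. Control and KO levels overlapped across conditions, since KO cells in EtOH held more GC RNA than control cells in DHT or FM. CD163L1, a scavenger receptor, was at 26.6 and 26.9 CPM in control against 6.42 and 6.85 in KO cells in FM, 22.3 and 24.5 against 5.81 and 3.93 in EtOH, and 22.9 and 29.6 against 4.18 and 4.17 in DHT, with a ratio of 4.03-fold in FM, 4.81-fold in EtOH and 6.28-fold in DHT. SPINK1, a trypsin inhibitor, was scarce, from 1.56 to 4.56 CPM in control and from 0.477 to 1.30 CPM in KO cells. SERPINB6, an intracellular protease inhibitor, was abundant, from 92.8 to 135.5 CPM in control and from 48.8 to 65.9 CPM in KO cells. FAM111B, a protease-like protein of replicating cells, was the gene with the highest mean level, at 336.7 and 366.3 CPM in control against 216.0 and 215.0 in KO cells in FM, 254.2 and 209.9 against 130.4 and 138.6 in EtOH, and 359.3 and 334.6 against 193.3 and 162.3 in DHT, and its lines differed 1.63-fold in FM, 1.73-fold in EtOH and 1.95-fold in DHT. VCX and VCX3B, testis genes of the X chromosome, differed 2.45-fold in FM, 4.5-fold in EtOH and 4.33-fold in DHT and 2.13-fold in FM, 4.10-fold in EtOH and 4.43-fold in DHT. MAGEA1, a melanoma antigen, was the only one of 12 genes of the melanoma antigen and cancer-testis pattern to be chosen.

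CYP4F32P, a pseudogene of the cytochrome P450 4F family, showed the largest difference. Its samples were at 3.34 and 3.13 CPM in control against 0.115 and 0 in KO cells in FM, 2.94 and 3.90 against 0 and 0.120 in EtOH, and 1.99 and 2.09 against 0 and 0 in DHT. Summed over replicates, KO cells held 3 counts against 160 in control in FM, a ratio of 52.3 (95% counting interval 17.6 to 256.2), and 3 against 173 in EtOH, 52.3 (17.6 to 256.0). In DHT they held 0 against 109, at least 37.8-fold lower when 3 counts are taken as the floor over the group. These intervals cover counting error only, and since the rule chose the genes by this ratio they are no test of a difference. Its exons lay wholly within another gene on the same strand, FAM95A, and 78.7% of the 50-base words of its transcripts occurred in other genes, so its count is uncertain. Of the 62 annotated genes, 9 shared at least 10% of such words with others: ZNF812P (89.8%), FAM95B1 (88.1%), CYP4F32P, CSPG4P11 (74.9%), VCX3B (74.3%), VCX (73.4%), KRT6C (44.1%), ZNF492 (33.3%) and PCDHB2 (21.1%). The other 53 shared less. Exons overlapped those of a gene on the opposite strand by 43.8% in PCDHB2, 37.4% in SELENOP and 35.9% in ACTA2, where the strand setting of the counting, which is not given in the sources used here, decides what was counted.

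**Figure D2:**
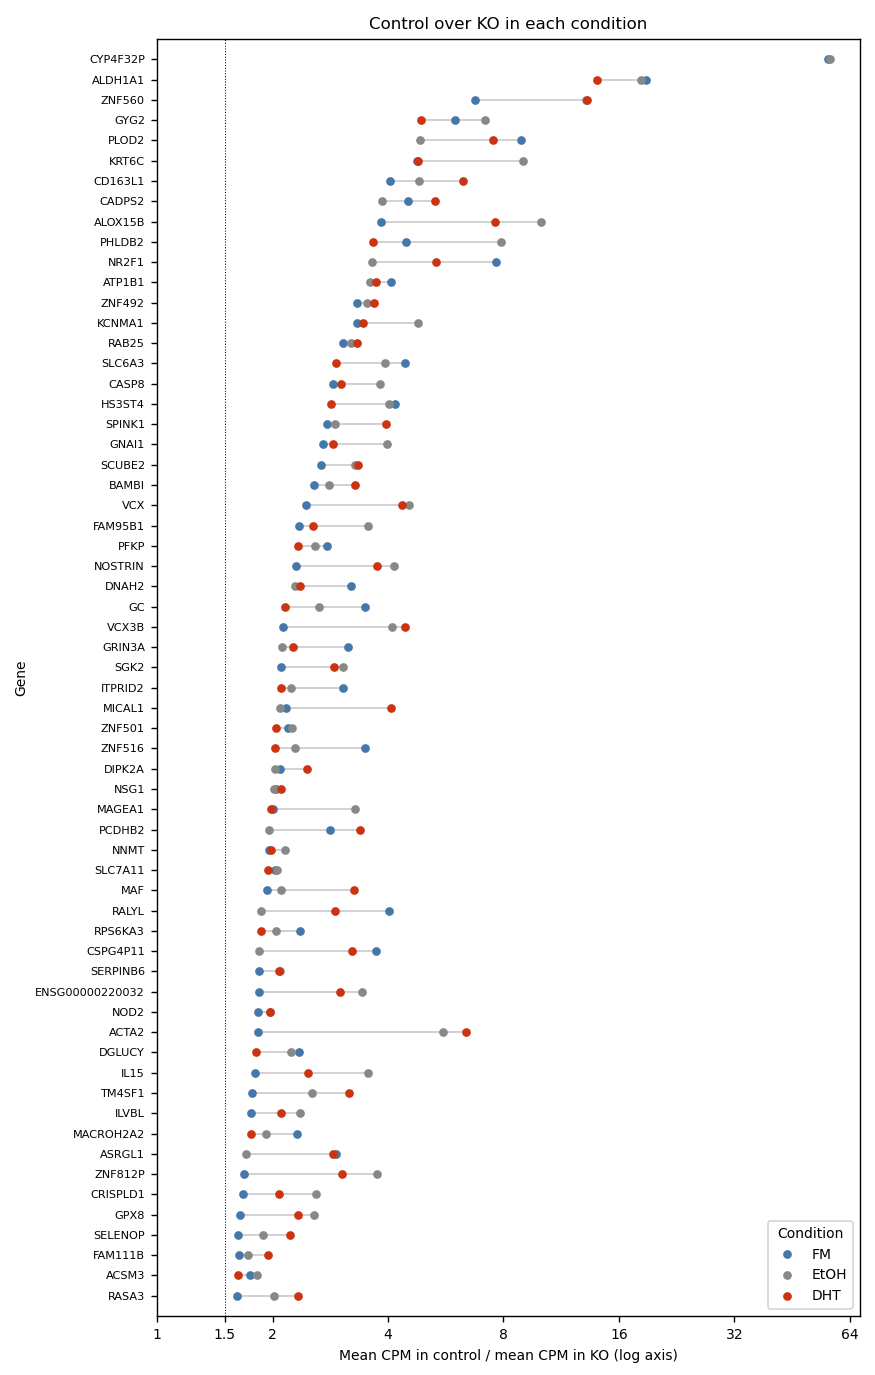
Ratio of the mean CPM of control to that of KO cells (log axis) for 62 of the 63 genes in FM (blue), EtOH (grey) and DHT (red), with the limit of 1.5 as a dotted line. Points of a gene lie close together for ATP1B1 (3.58 to 4.07) and far apart for ACTA2 (1.83 to 6.39). CYP4F32P has no DHT point because its KO samples were at 0, and its other points are ratios of mean CPM rather than of summed counts.

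The size of the difference depended little on condition for many genes: the largest of the 3 ratios was less than 1.5 times the smallest in 34 genes and at least 2 times in 9. FM was the condition with the smallest ratio in 33 genes, DHT in 17 and EtOH in 13. The largest ratio was in EtOH for 24, in DHT for 21 and in FM for 18.

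Next, the response of these genes to androgen was examined within each line, a contrast that the rule did not use although it drew on the same samples. In control cells, DHT against EtOH changed 25 of the 63 genes (DESeq2 over all genes, adjusted p of at most 0.05 and a fold change of at least 1.5). Of these 19 rose, against 6.21% of all 17028 genes tested, and 6 fell, against 5.54%. Among genes with a mean of at least 1 CPM, which the set shares by rule, 13.3% changed. In KO cells 20 of the 63 changed: 14 rose, against 4.55% of all genes tested, and 6 fell, against 3.34%, where 8.90% of the genes with a mean of at least 1 CPM changed. Leaving out the second KO EtOH replicate reduced this count to 13. In every alternative fit, 21 of the 25 control calls and 12 of the 20 KO calls were made, and those missing from at least 1 fit were GYG2, NR2F1, RALYL and SELENOP in control and ACTA2, ALDH1A1, GNAI1, IL15, KRT6C, NR2F1, SCUBE2 and SPINK1 in KO cells. Over the set, the DHT response had a median of 0.18 (log2) in control and 0.12 in KO cells, against -0.02 and -0.01 over all genes tested, and the median absolute change was 0.49 and 0.48 against 0.26 and 0.21.

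Both lines raised 12 genes with DHT: ACTA2, ALDH1A1, ASRGL1, DIPK2A, HS3ST4, KCNMA1, KRT6C, MAF, MICAL1, NNMT, PHLDB2 and ZNF812P. The share of all genes raised or lowered in both lines was not computed. MAF rose most in both, by a log2 fold change of 4.43 ± 0.13 (SE, adjusted p = 3.34e-256) in control and 3.74 ± 0.15 (SE, adjusted p = 6.37e-139) in KO cells, or 21.5-fold and 13.4-fold. NNMT rose by 2.75 ± 0.40 (SE, adjusted p = 1.70e-10) and 2.82 ± 0.51 (SE, adjusted p = 1.01e-06) on the same scale, from levels below 1 CPM in EtOH. With MAF it was one of 2 chosen genes among 27 measured androgen-induced genes, of which 25 rose in control and 24 in KO cells. DIPK2A rose by 2.36 ± 0.14 (SE, adjusted p = 1.23e-65) in control and 2.02 ± 0.14 (SE, adjusted p = 6.57e-42) in KO cells. ZNF812P rose by 3.06 ± 0.22 (SE, adjusted p = 1.36e-41) and 3.31 ± 0.33 (SE, adjusted p = 3.29e-21), a pseudogene whose count is shared with near copies. KCNMA1 rose by 1.72 and 2.12, ASRGL1 by 2.14 and 1.34 and ALDH1A1 by 1.06 and 1.42. KRT6C rose by 2.37 ± 0.52 (SE, adjusted p = 6.68e-05) in control, and in KO cells from 2 to 21 counts, 8.66-fold (95% counting interval 2.12 to 76.2). That KO call was lost when either KO EtOH sample or the second KO DHT sample was left out, with log2 fold changes of 3.34, 3.08 and 2.65. The mean of KRT6C over all samples, 1.01 CPM, only just passed the limit of 1. It rested mostly on control FM and control DHT, with group means of 2.79 and 1.87 CPM. Its rise in control thus partly uses a group that admitted it to the set.

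The genes that fell in both lines were ATP1B1, BAMBI, GC, NR2F1 and SCUBE2. GC changed by -1.53 ± 0.10 (SE, adjusted p = 2.26e-46) on the log2 scale in control and -1.29 ± 0.11 (SE, adjusted p = 2.29e-29) in KO cells. SCUBE2, a secreted protein that helps release Hedgehog, changed by -1.97 ± 0.46 (SE, adjusted p = 2.08e-04) and -2.03 ± 0.60 (SE, adjusted p = 0.00859), from no more than 3.38 CPM in any sample. The mean of SCUBE2 over all samples, 1.05 CPM, only just passed the limit of 1, and its levels were highest in control EtOH. Its fall in control thus partly uses a group that helped to admit it to the set. For BAMBI the change was -0.89 ± 0.16 (SE, adjusted p = 6.53e-07) in control and -1.18 ± 0.17 (SE, adjusted p = 3.02e-10) in KO cells, and for ATP1B1 it was -0.76 ± 0.10 (SE, adjusted p = 4.73e-12) and -0.87 ± 0.11 (SE, adjusted p = 2.23e-14). NR2F1 changed by -0.82 ± 0.30 (SE, adjusted p = 0.0311) and -1.41 ± 0.41 (SE, adjusted p = 0.00672). NR2F1 lost its control call when any 1 of the 4 control EtOH and DHT samples was left out (-0.70 to -0.93) and its KO call without the second KO EtOH or KO DHT sample (-1.25 and -1.24), and SCUBE2 lost its KO call without either KO EtOH sample or the second KO DHT sample (-2.04, -2.03 and -1.57).

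Genes that passed in a single line were 11. CADPS2, CSPG4P11, FAM111B, PLOD2, RALYL, SELENOP and TM4SF1, a surface protein of carcinomas, rose in control, GYG2 fell there, GNAI1 and IL15 rose in KO cells, and SPINK1 fell there. GYG2 changed by -0.78 ± 0.24 (SE, adjusted p = 0.0101) in control and -0.28 ± 0.35 (SE, adjusted p = 0.743) in KO cells, and lost the control call without the first control EtOH (-0.74) or first control DHT sample (-0.67). CADPS2 changed by 1.0 ± 0.14 (SE, adjusted p = 6.51e-11) and 0.48 ± 0.18 (SE, adjusted p = 0.0562), and GNAI1 by 0.26 ± 0.14 (SE, adjusted p = 0.207) and 0.66 ± 0.16 (SE, adjusted p = 6.96e-04). By the interaction test none of the 11 was called, so a call in a single line does not set them apart. The other 35 genes passed in neither line, among them CYP4F32P, CD163L1, ALOX15B, SLC7A11, RAB25, ITPRID2 and SERPINB6. The DHT response had the same sign in both lines for 55 of the 63, and over the 63 genes, which share libraries, the responses of the lines had a Spearman rank correlation of 0.91, given as a description. Shares over all genes were not computed for a pass in neither line or for a shared sign.

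**Figure D3:**
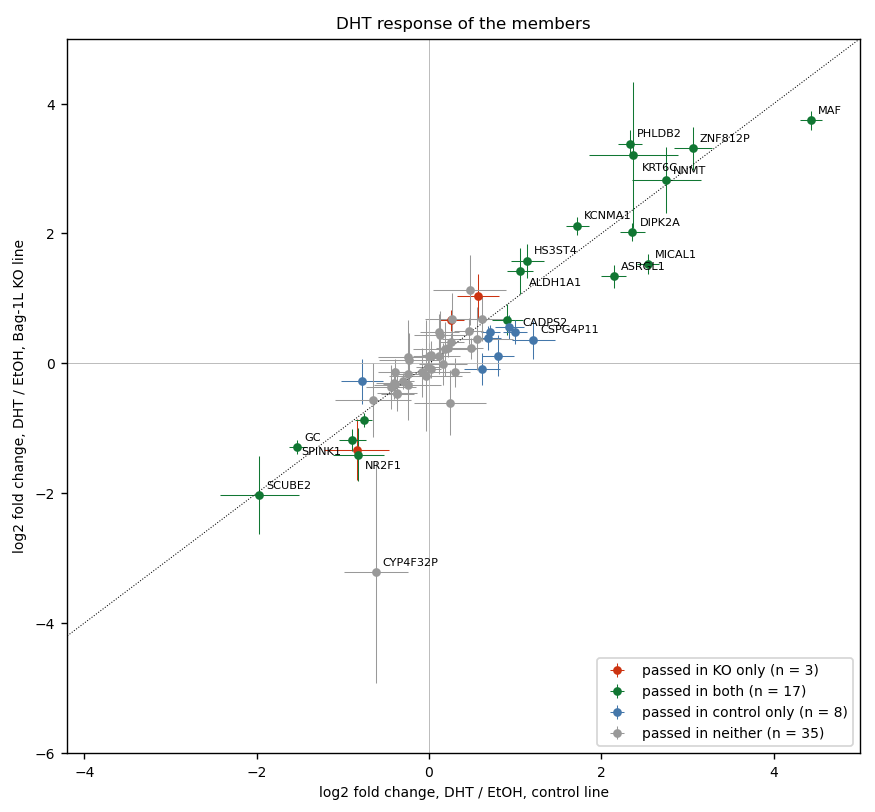
Log2 fold change of DHT against EtOH in control (horizontal) and KO cells (vertical) for the 63 genes, with bars of 1 SE and the dotted line of equal response. The 17 genes that passed in both lines (green) run from SCUBE2 (-1.97 and -2.03) to MAF (4.43 and 3.74), MICAL1 lies below the line and PHLDB2 above it, and most of the 35 that passed in neither (grey) sit near the origin.

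The difference between the 2 DHT responses was tested as an interaction, which the rule bounds in part because it limited the ratio of the lines in both EtOH and DHT. Of 61 genes given an adjusted p, 2 passed (DESeq2, 0.379% of the 13985 genes tested), and 8 had an unadjusted p under 0.05. The share of all genes with such an unadjusted p was not computed. The response of MICAL1 was smaller in KO cells, 2.54 ± 0.13 (SE, adjusted p = 1.13e-76) in control and 1.53 ± 0.16 (SE, adjusted p = 4.0e-20) in KO cells, a difference of -1.01 ± 0.21 (SE, adjusted p = 7.32e-04). In CPM, control cells went from 10.7 and 11.2 to 61.0 and 56.0 and KO cells from 5.23 and 5.29 to 14.6 and 14.2. PHLDB2 responded more in KO cells, 2.33 ± 0.14 (SE, adjusted p = 4.83e-56) in control and 3.38 ± 0.21 (SE, adjusted p = 1.19e-55) in KO cells, a difference of 1.05 ± 0.25 (SE, adjusted p = 0.0147). The MICAL1 call was lost without the first or second KO EtOH sample (adjusted p = 0.0749 and 0.0863). That of PHLDB2 was lost with edgeR (adjusted p = 0.0743), in a fit of the compared groups alone (adjusted p = 0.0969), and without any 1 of the 8 samples except the second control EtOH sample (adjusted p = 0.0631 to 0.473, and 2.95e-04 without that sample). MAF, with a difference of -0.69 ± 0.20 (SE, adjusted p = 0.0842), and ASRGL1, with -0.81 ± 0.23 (SE, adjusted p = 0.0998), did not pass.

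**Figure D4:**
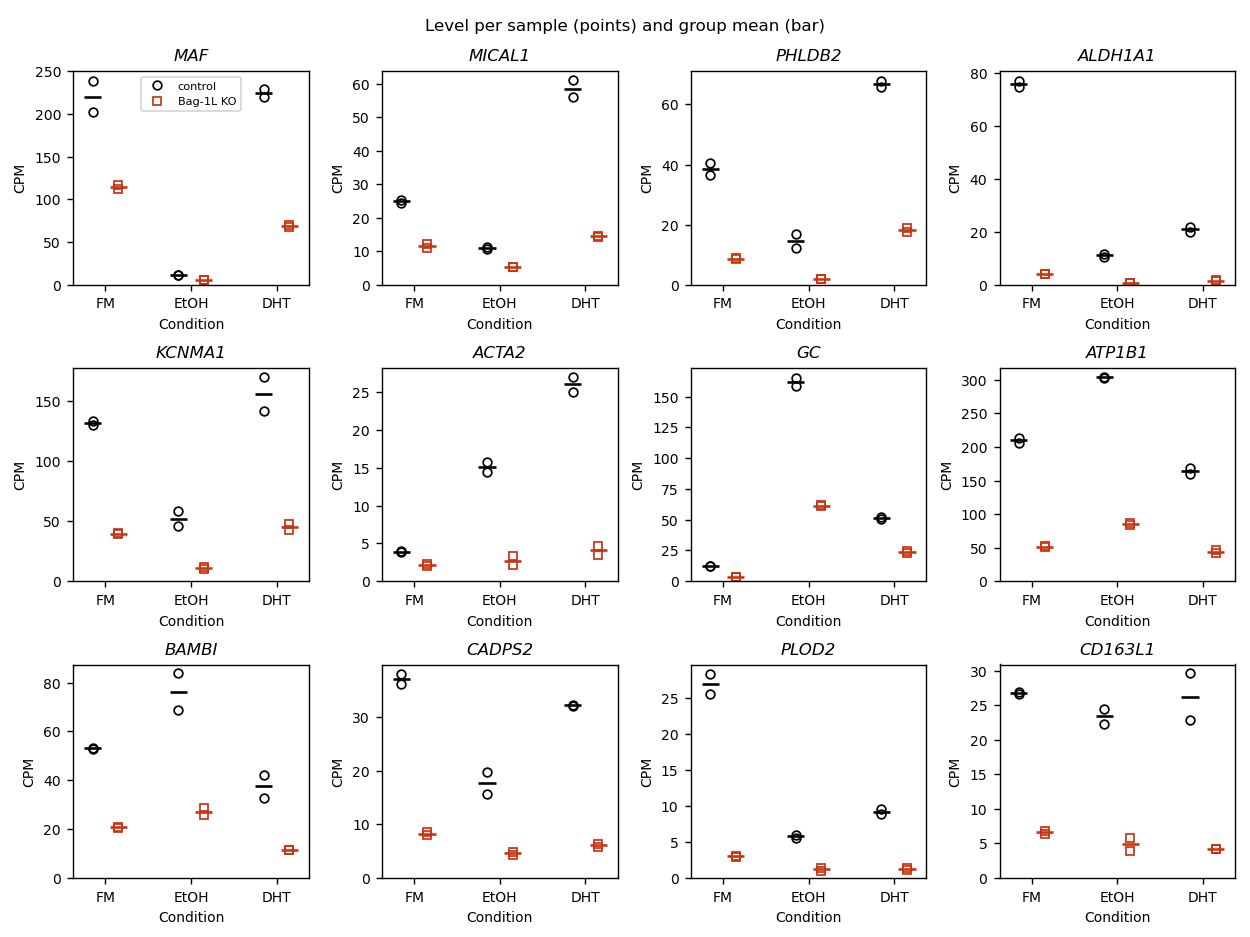
CPM per sample in control (black circles) and KO cells (red squares) in FM, EtOH and DHT for 12 of the genes, with a bar at each group mean of 2 samples. MICAL1 shows the widest gap in DHT (56.0 and 61.0 against 14.2 and 14.6), PHLDB2 rises in both lines, GC is highest in EtOH in both, and CD163L1 keeps its level in all 3 conditions.

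Full medium was compared with EtOH in the same way. This contrast shares the EtOH samples with the DHT contrast, so the values are set side by side and their overlap is not a result. In control cells 34 of the 63 genes changed, 22 higher in FM (9.55% of 19056 genes tested) and 12 lower (11.2%). In KO cells 34 changed, 24 higher (9.36%) and 10 lower (9.44%). Among genes with a mean of at least 1 CPM, which the set shares by rule, 25.6% changed in control and 22.9% in KO cells. Of the 63 genes, 21 were higher and 7 lower in both lines, and the share of all genes so changed in both lines was not computed. ALDH1A1 was raised by a log2 fold change of 2.84 ± 0.15 (SE, adjusted p = 1.86e-78) in FM in control and 2.82 ± 0.32 (SE, adjusted p = 1.23e-16) in KO cells, beside 1.06 and 1.42 with DHT. IL15 was higher by 2.22 ± 0.23 (SE, adjusted p = 4.21e-21) and 3.18 ± 0.31 (SE, adjusted p = 3.94e-23), beside 0.57 and 1.03. PLOD2 was higher by 2.28 ± 0.19 (SE, adjusted p = 5.65e-32) and 1.41 ± 0.28 (SE, adjusted p = 5.24e-06), beside 0.80 and 0.12.

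Lower in FM in both lines were GC, at -3.65 ± 0.12 (SE, adjusted p = 3.59e-213) and -4.05 ± 0.15 (SE, adjusted p = 1.70e-156), and RAB25, at -0.99 ± 0.13 (SE, adjusted p = 9.50e-14) and -0.91 ± 0.14 (SE, adjusted p = 6.94e-10). RAB25 had DHT changes of 0.02 and -0.09. VCX and VCX3B were also lower there, at -1.67 and -1.87 in control and -0.78 and -0.91 in KO cells, where both calls were lost in at least 1 alternative fit. ACTA2 and TM4SF1 were higher with DHT and lower in FM in control cells. ACTA2 had log2 fold changes of 0.91 ± 0.18 (SE, adjusted p = 1.19e-05) with DHT and -1.88 ± 0.21 (SE, adjusted p = 7.50e-18) in FM, and TM4SF1 of 0.93 ± 0.17 (SE, adjusted p = 1.35e-06) and -0.82 ± 0.18 (SE, adjusted p = 4.62e-05), where the FM call of TM4SF1 was lost in at least 1 alternative fit. In neither comparison and neither line did 21 of the genes pass, among them CYP4F32P, CD163L1, ZNF560, SLC6A3, SLC7A11 and PFKP. The same count over all genes was not made.

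By role, the DHT calls in control, made in 6.21% (higher) and 5.54% (lower) of all genes tested, fell on 7 of the 13 enzymes (6 higher, 1 lower), on 6 of the 12 genes of cytoskeleton, adhesion and vesicles (all higher), on 3 of the 8 genes of transcription, chromatin and RNA binding (2 higher, 1 lower), on 3 of the 11 signalling genes (1 higher, 2 lower) and on 2 of the 5 transporters and channels (KCNMA1 higher, ATP1B1 lower). Of the 6 pseudogenes and other genes 3 were higher. Among the 5 genes sorted as carriers, secreted proteins or scavengers GC fell, and the 3 testis antigens were not called. SCUBE2, also secreted, had been sorted with the signalling genes and is 1 of the 2 lower ones there.

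The genes were spread over the genome. Chromosomes 5 (6 genes), 3, 4, 10 and X (5 each) held the highest numbers, and chromosomes 21, 22 and Y none. The share of genes chosen was highest on X, 5 of 474 genes or 1.05%, and on chromosome 4, 5 of 494 or 1.01%. Start sites of 3 pairs lay within 1 Mb: DNAH2, an axonemal dynein, and ALOX15B, 321.3 kb apart on chromosome 17 with 9 other genes between; VCX and VCX3B, 622.6 kb apart on X with 1 between; and ZNF560 and ZNF812P, 196.3 kb apart on chromosome 19 with 5 between. Genes around the chosen ones were examined next, with the gap between them and the chosen genes set in part by the rule. Over 60 genes with another measured gene within 1 Mb, the neighbours' median log2 difference of KO minus control was between -0.278 and 0.790, with a median of 0.0299, against -1.39 for the chosen genes and 0.0559 for all genes. In 53 of the 60 it lay within 0.25 of 0, and in none did it reach a 1.5-fold reduction. Single neighbours did so beside 7 of the chosen genes, ACSM3, ATP1B1, CADPS2, CSPG4P11, KRT6C, SELENOP and ZNF501, with the lowest at -1.25 beside CADPS2. Others were higher in KO cells, by up to 1.75 beside KRT6C and 1.76 beside SLC6A3. ALDH1A1 had the lowest neighbourhood, with a median of -0.278 over 2 genes, and GNAI1 the highest, 0.790 in 1 gene. MAF and PLOD2 had no measured gene within that distance.

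**Figure D5:**
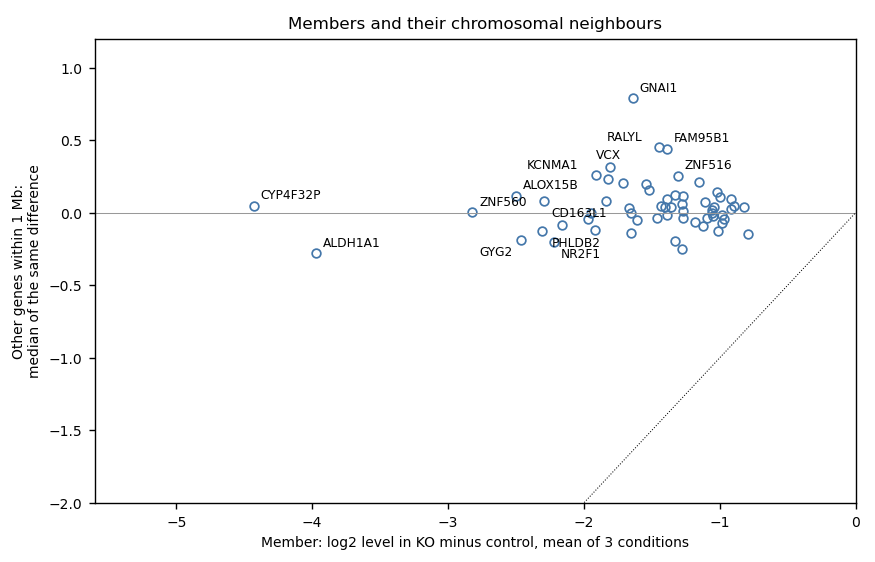
Log2 difference of KO minus control, averaged over the 3 conditions, for 60 of the genes (horizontal) and the median of the other measured genes within 1 Mb (vertical), with a grey line at 0 and a dotted line of equal difference. The points lie between -0.278 and 0.790 on the vertical axis, and as medians they do not show single neighbours.

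Families were compared by symbol. Besides the 5 zinc finger genes, 2 of 135 genes named FAM were chosen (FAM111B and FAM95B1), and 1 each of 27 potassium channels, 16 keratins, 15 cadherins and protocadherins, 14 aldehyde dehydrogenases, 65 glycosyl- and sulfotransferases and 27 cytochromes P450. The share over all genes was 0.447%, and counts of 1 or 2 do not set a family apart.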

How the data were processed

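Poly(A) RNA from 12 samples of LNCaP cells, control and Bag-1L KO, was sequenced. The authors prepared stranded TruSeq libraries, processed reads with CASAVA (1.7), mapped them to GRCh37 with TopHat2 (2.0.11) and deposited raw counts per Ensembl gene from HTSeq (0.5.3p3), which leaves out reads that fit several places or genes. The Ensembl release and strand setting are not given in the sources used here. Each sample held 63677 gene identifiers. The tallies of uncounted reads, 26.9% to 31.5% of all reads, were left out, so CPM refers to gene counts.

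Symbols and positions were read from GENCODE (GRCh37), where 55665 of the identifiers were found. Of the 14103 genes with a mean of at least 1 CPM, 298 had no position, so the chromosome 12 limit could not be applied to them.

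Genes with at least 10 counts over all samples (26156) were fitted with DESeq2 (1.42.0, R 4.3.3, unshrunken Wald tests), all 12 samples together with 1 coefficient per group and Benjamini-Hochberg adjustment over all genes. The fit was tested on simulated counts with known changes. Ratios of control to KO are ratios of mean CPM of 2 replicates. Alternatives were other limits in the rule, other library totals, edgeR (4.0.16), other filters, a fit of the compared groups alone, a replicate block, no fold minimum and each replicate left out. Intervals cover counting error only, with replicates summed. Those for control against KO are of ratios that the rule used, so they are no test.

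The genes, lists, roles and tests were chosen with earlier results of these data known. Genes named by rule were BAG1, the 12 with the largest smallest ratio of control to KO, the 6 largest rises and 6 largest falls with DHT in control, those passing the interaction test, the 3 on each side of the limit, families with at least 2 members, close pairs and the 8 most abundant. All others, ACTA2 among them, were named after their values were seen. The values of 1 of the 63 genes are not reported here.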

Additional observations from a re-analysis of the deposited data

Results flagged for a closer look

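The DHT response differed between the lines in 2 genes by a test of the difference itself (DESeq2 interaction over all genes). PHLDB2 rose more in KO cells, with a difference of 1.05 on the log2 scale (KO minus control, adjusted p = 0.0147). MICAL1 rose less in KO cells, with a difference of -1.01 (adjusted p = 7.32e-04). In both genes both lines rose with DHT. The differences kept their direction under every alternative run, from 0.86 to 1.21 for PHLDB2 and from -1.10 to -0.93 for MICAL1, while adjusted p ran from 2.95e-04 to 0.473 and from 2.08e-04 to 0.0863. Both genes were also chosen for their ratio of control to KO in EtOH and DHT, so the rule bounds this difference in part.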

How the results depend on the processing

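The number of genes depended on the limits of the rule: 139 with the fold limit lowered by 0.25, 24 with it raised to 2 and 38 with a mean of at least 5 CPM, against 63. With a mean of at least 0.5 CPM there were 77, with TMM totals 71 and with DESeq2 size factors 73, each including all 63, and leaving out 1 sample at a time gave 62 to 70. Genes changed by DHT numbered 22 to 23 in control and 13 to 17 in KO cells when 1 sample was left out (25 and 20 in full), with 13 reached without the second KO EtOH replicate. For FM the ranges were 28 to 33 in control and 30 to 33 in KO cells (34 in each). The interaction kept 1 gene with edgeR, 1 in a fit of the groups compared alone, and 0 to 3 with a sample left out, 0 without either KO EtOH replicate. The other settings kept these counts within 1.5 times. Values of single genes under the alternatives numbered 284. Of these, 247 kept their call status or, for ratios of control to KO, stayed within the replicate spread. Another 30 lost a call, and 6 ratios moved by more than that spread (CD163L1, PHLDB2 and ATP1B1 under other library totals). The spread was taken from ratios of same-numbered replicates. CYP4F32P, with a KO sample at 0, had no such spread and was counted as kept. In 1 case the sign reversed: the GYG2 response to DHT in KO cells, -0.28 and not past the threshold, ran from -0.59 to 0.00 with a sample left out. The cause of these changes was not tested. The replicate number as a block left all 5 counts as they were, at 25, 20, 2, 34 and 34. Over 15 pairs of groups, the correlation of same-numbered deviations across 11029 genes ran from -0.45 to 0.70 (control EtOH with control DHT). It was above 0.1 in 6 and below -0.1 in 7, and since it was not above 0.1 in every pair and the labels give no shared origin, the numbers were not taken as a pairing. With 2 replicates per group and 36 of the 63 genes below 10 CPM, the precision of responses is limited; the smallest detectable response was not tested.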
